A study of Mus musculus with 6 samples.

Results

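The genes described here encode the nuclear-encoded subunits of respiratory complexes II, III, IV and V, together with cytochrome c and a few factors that assemble these complexes or sit beside them. They were taken by gene symbol: Sdha to Sdhd and the Sdhaf genes, every Uqcr gene, every Cox4 to Cox8 gene, every Atp5 gene, Cyc1 and Cycs. Of the 49 genes with such a symbol, 2 were left out by name, Cox7a1 and Cox8b, the forms of their subunits typical of heat-producing fat and muscle. All 47 that remained had a mean of at least 1 FPKM over the libraries (a level that corrects for transcript length and library size), and all 47 were among the 11086 genes tested, of 17342 named genes. They comprised 4 subunits of complex II, 9 of complex III, 13 of complex IV and 15 of complex V, and 6 others: Sdhaf1, Sdhaf2, Cycs, Cox7a2l, Atp5s and Atp5sl. Sdhaf3, Sdhaf4, Cox7b2, Cox8c and the subunits encoded in mitochondrial DNA were not analysed here.

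RNA came from the inguinal white fat, a subcutaneous depot, of C57BL/6 mice aged 8 weeks, all cold stimulated; the sources used here give neither the temperature nor the time. The libraries were 3 from wild-type (WT) mice, replicates 1 to 3, and 3 from Rarres2-/- mice, replicates 4 to 6, which lack the gene for chemerin, a protein that adipocytes secrete. The sources used here do not give the deleted part of the gene, and fat kept without cold was not analysed here. Rarres2 was at 436, 610 and 505 FPKM in WT and at 0.260, 6.35 and 1.41 FPKM in Rarres2-/-. The adipocyte marker Adipoq was at 2118 to 2809 FPKM in the 6 libraries. The labels do not say that the libraries came from separate mice, so p-values measure the spread between libraries, which may be technical. FPKM gives no absolute depth, but steps between low values gave a relative depth, with WT replicate 2 as the unit, of 0.480 for WT replicate 1 and of 0.696 to 1.01 for the others. WT replicate 1 and Rarres2-/- replicate 4 stood apart from the rest in markers of endothelium and, for WT replicate 1, of muscle and macrophages, with values given beside the results they move with.

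Complex II, succinate dehydrogenase, passes electrons from succinate to coenzyme Q and is also an enzyme of the citric acid cycle. Complex III carries them on to cytochrome c, a small soluble protein, and complex IV, cytochrome c oxidase, hands them to oxygen. Complexes III and IV pump protons out of the matrix, and complex V, ATP synthase, lets protons back in through a rotating ring and makes ATP. Beige adipocytes, the heat-producing cells that this depot forms in the cold, are rich in mitochondria, and their uncoupling protein lets protons return without ATP synthesis. Genes of these complexes are known targets of the nuclear respiratory factors NRF1 and GABP (an ETS factor), of the estrogen-related receptors and of YY1, which act with the coactivators of the PGC-1 family.

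Promoter sequences from RefSeq (GRCm38.p6, from 250 bases before to 50 bases after the start) were matched by symbol to 37 of the 47 genes. Those with no match were Atp5a1, Cox4i1, Cox4i2, Cox6a2, Cox6c, Cyc1, Sdhc, Uqcrb, Uqcrc2 and Uqcrq. One promoter of each complex is shown, chosen after the matches were seen. Such sites occur in some genes of each complex, and the choice by symbol did not use them. Each is the 170 bases before the start of the gene, on the minus strand, written 5′ to 3′: Sdha of complex II at chr13:74350241-74350410, Uqcr11 of complex III at chr10:80406822-80406991, Cox6a1 of complex IV at chr5:115348959-115349128 and Atp5h of complex V at chr11:115419920-115420089. Capitals mark matches to the NRF1 motif (GCGCA, any base, then GCGC) and to the ETS motif CCGGAAG, in either orientation.
Sdha: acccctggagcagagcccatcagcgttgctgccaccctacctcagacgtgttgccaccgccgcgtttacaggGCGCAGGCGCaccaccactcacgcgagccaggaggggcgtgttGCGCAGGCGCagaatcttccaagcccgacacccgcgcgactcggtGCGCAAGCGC
Uqcr11: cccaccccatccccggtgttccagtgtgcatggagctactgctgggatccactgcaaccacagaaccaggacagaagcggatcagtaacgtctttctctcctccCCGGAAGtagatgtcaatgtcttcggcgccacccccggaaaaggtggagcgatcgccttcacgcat
Cox6a1: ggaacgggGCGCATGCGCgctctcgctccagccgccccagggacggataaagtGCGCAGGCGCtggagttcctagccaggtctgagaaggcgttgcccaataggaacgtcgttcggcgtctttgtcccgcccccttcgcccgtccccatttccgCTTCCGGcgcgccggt
Atp5h: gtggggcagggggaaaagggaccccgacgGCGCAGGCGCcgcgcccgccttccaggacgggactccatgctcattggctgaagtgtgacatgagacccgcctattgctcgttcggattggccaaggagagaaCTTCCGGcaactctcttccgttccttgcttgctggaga

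The Sdha promoter held 3 NRF1 matches, at -98 to -89, -55 to -46 and -10 to -1 from the start. Cox6a1 held 2, at -162 to -153 and -117 to -108, and an ETS match at -16 to -10. Searched on both strands, the NRF1 motif was present in 10 of the 37 promoters (27.0%): Sdha, Sdhd, Uqcrc1, Cox6a1, Atp5c1, Atp5g2, Atp5g3, Atp5h, Atp5k and Atp5o. The same letters were in 4.60% of all 32851 promoters of this length and in 11.8% of those of 8274 tested genes. The ETS motif was in 14 (37.8%, against 8.86% of all and 20.3% of tested), among them Sdhb, Sdhd, Uqcr11, Uqcrh, Cox6a1, Cox6b1, Cox8a and Atp5e. The estrogen-related receptor motif CAAGGTCA was in Sdhd, Atp5g3 and Atp5l (8.11%, against 1.56% and 1.22%). The YY1 motif AAGATGGCG was in Atp5j, Atp5j2 and Atp5sl (8.11%, against 1.40% and 3.66%). No match of a motif overlapped a match of another in these promoters. A match describes these letters only. Sdhd carried 3 of the 4 motifs, and members with and without matches are both among those that were low in the same library below.

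Between the genotypes, no gene of complexes II to V passed the test. By limma on log2(FPKM + 1), where a pseudocount of 1 shrinks the differences of low genes, 0 of 47 had a Benjamini-Hochberg adjusted p under 0.05 (two-sided), where 0.0% of all tested genes did. Rarres2 itself, with a log2 difference of -7.51, did not pass this test either (adjusted p 0.0597). At an unadjusted p under 0.05 there were also 0 of 47, where 3.93% of tested genes were. Each of the 47 had an adjusted p of 0.999, and the smallest unadjusted p was 0.0967, for Cox6b2. The groups did not overlap in 0 of 47, against 10.3% of tested genes. The median log2 difference (Rarres2-/- minus WT) was 0.11 over complex II, -0.07 over complex III, -0.08 over complex IV and -0.02 over complex V, and -0.05 over all 47, beside -0.01 over all tested genes. Of the 47, 28 lay below 0, where 51.4% of tested genes did. Standard errors ran from 0.154 to 0.542. Among the 40 that averaged at least 50 FPKM, 95% intervals of the difference reached from -1.52 (Uqcrq) to 1.26 (Cycs), so these libraries leave room for differences of that size in either direction.

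What set the libraries apart was shared by the complexes and divided the Rarres2-/- replicates. Rarres2-/- replicate 4 was the lowest of the 6 libraries in 41 of 47 genes, where it was lowest in 28.5% of tested genes. By complex these were 3 of 4 in complex II, 9 of 9 in complex III, 10 of 13 in complex IV and 15 of 15 in complex V. Rarres2-/- replicate 6 was the highest in 37 of 47, against 19.4%, and replicates 5 and 6 both lay above every WT library in 25 of 47, against 21.5%. The median deviation from the gene's mean over the 6 libraries was 0.22, -0.04 and -0.08 on the log2 scale in WT replicates 1 to 3, and -0.79, 0.23 and 0.51 in Rarres2-/- replicates 4 to 6. Over all tested genes the median was -0.04 in Rarres2-/- replicate 4. The deviation of that library was -0.68 in complex II, -0.91 in complex III, -0.89 in complex IV and -0.75 in complex V. It was at least 0.5 below the mean in 37 of 47 genes, against 10.2% of tested genes. The median SD over libraries, on the log2 scale, was 0.71 in Rarres2-/- and 0.21 in WT, where all tested genes had 0.23 and 0.20, and the SD was the larger one in Rarres2-/- in 43 of 47 genes (91.5%, against 54.3%). These counts describe the libraries and were not tested, and the counts among abundant tested genes, given below, were higher than those among all tested genes. Genes of the complexes vary together, so they are not independent cases.

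**Figure D1:**
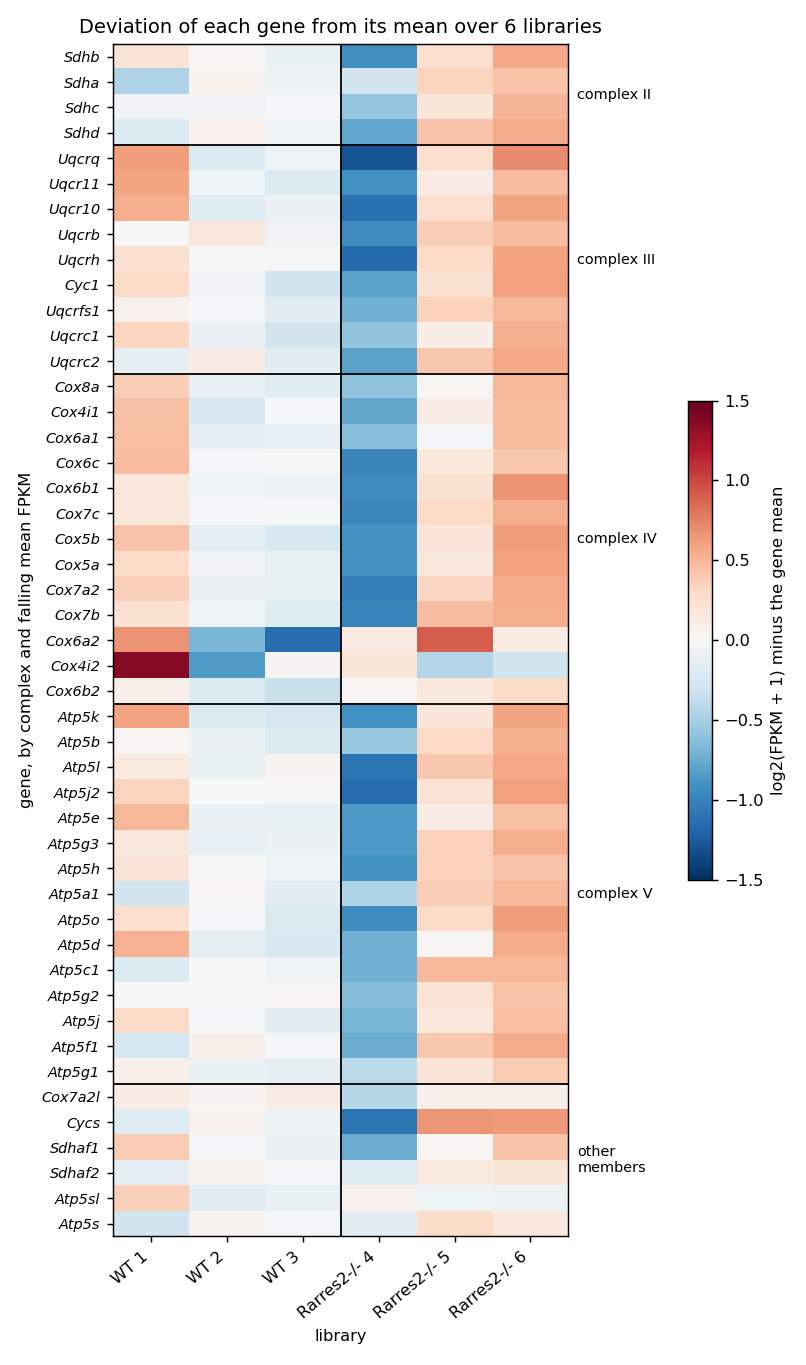
Deviation of each of the 47 genes from its own mean over the 6 libraries, in log2(FPKM + 1), with genes in rows grouped by complex and libraries in columns. Rarres2-/- replicate 4 is below the mean for nearly all abundant genes of every complex (37 of 47 by at least 0.5), and replicate 6 is highest in 37 of 47.

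Since most genes of each complex moved together between libraries, the summed FPKM of a complex shows the same order. Complex II summed to 1077, 1168 and 1096 FPKM in WT and to 745, 1416 and 1649 FPKM in Rarres2-/- (1114 ± 48.3 and 1270 ± 470, SD, n = 3 each). Complex III summed to 8238, 5908 and 5740 FPKM in WT and to 3059, 7386 and 9235 FPKM in Rarres2-/-. Complex IV, the most abundant, summed to 15614, 11328 and 11436 FPKM in WT and to 6937, 13488 and 17564 FPKM in Rarres2-/-. In each, replicate 4 was the lowest and replicate 6 the highest of the 6, and the groups overlapped. Complex V summed to 12874, 10334 and 10065 FPKM in WT and to 6180, 13153 and 15770 FPKM in Rarres2-/-, with the same extremes. WT replicate 1 was the highest WT library in complexes III, IV and V but the lowest of the WT libraries in complex II. The proportions among the complexes moved less than the sums. Complex II made up 2.85% to 4.40% of the sum over the 4 complexes, complex III 18.1% to 21.8%, complex IV 38.1% to 41.3% and complex V 34.1% to 37.1%. All 47 genes made up 4.99% to 6.28% of the FPKM of named genes in WT, without 45 genes of small RNAs, and 3.78%, 5.73% and 6.59% in Rarres2-/-.

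**Figure D2:**
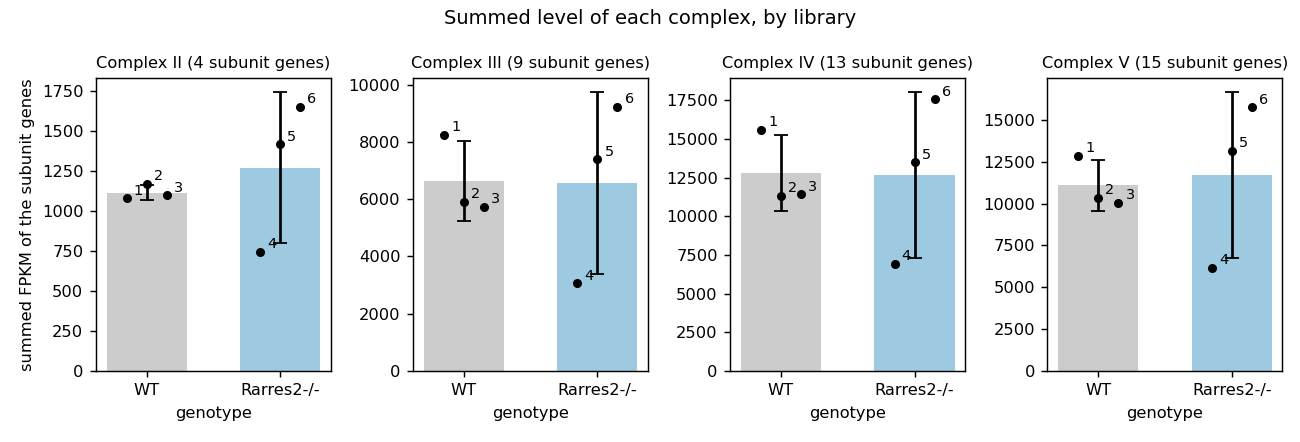
Summed FPKM of the subunits of each complex in each library, with bars for the mean and lines for the SD of the 3 libraries of a genotype. In all 4 complexes the Rarres2-/- points span the WT points, from replicate 4 at the bottom (745 FPKM in complex II, 6937 FPKM in complex IV) to replicate 6 at the top (1649 and 17564 FPKM).

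Complex II has 4 subunits, and Sdha, the flavoprotein that oxidizes succinate (chromosome 13, 74322255 to 74350240, GRCm38), was the only one of the 40 genes averaging at least 50 FPKM whose lowest library was not Rarres2-/- replicate 4. It was at 209, 301 and 274 FPKM in WT and at 238, 366 and 389 FPKM in Rarres2-/-. Its lowest library was WT replicate 1, with Rarres2-/- replicate 4 next, and replicates 5 and 6 lay above all WT libraries. The log2 difference was 0.32 (SE 0.262, 95% interval -0.30 to 0.95). Sdhb, the iron-sulfur subunit, was at 378, 334 and 308 FPKM in WT and at 175, 394 and 491 FPKM in Rarres2-/-, a difference of -0.07 (SE 0.387). Sdhc, a membrane anchor, was at 269, 268 and 271 FPKM in WT and at 186, 316 and 394 FPKM in Rarres2-/-, a difference of 0.08 (SE 0.292). Its WT libraries were nearly equal, and the Rarres2-/- libraries lay on either side of them. Sdhd, the other anchor, was at 220, 265 and 242 FPKM in WT and at 147, 341 and 374 FPKM in Rarres2-/-, a difference of 0.14 (SE 0.368). In Sdhb, Sdhc and Sdhd alike, replicate 4 was below every WT library and replicates 5 and 6 above every one. The assembly factors were lower in level, Sdhaf1 at 21.3 to 49.3 FPKM and Sdhaf2 at 11.5 to 15.2 FPKM, and replicate 4 was the lowest library in both.

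Complex III held the gene with the widest range between Rarres2-/- libraries among those averaging at least 50 FPKM. Uqcrq, a small subunit of the complex (chromosome 11, 53427922 to 53430831), was at 2268, 1263 and 1405 FPKM in WT and at 596, 1754 and 2395 FPKM in Rarres2-/-. Replicate 6 was 4.02 times replicate 4, and WT replicate 1 lay close to replicate 6. The log2 difference was -0.23 (SE 0.542). Uqcr11, another small subunit, was at 1620, 1025 and 929 FPKM in WT and at 571, 1161 and 1472 FPKM in Rarres2-/-, with WT replicate 1 the highest library and a difference of -0.22 (SE 0.411). The larger subunits were lower in level. Uqcrc2, a core protein, was at 208, 247 and 205 FPKM in WT and at 131, 304 and 340 FPKM in Rarres2-/-, a difference of 0.12 (SE 0.371). Uqcrfs1, the Rieske iron-sulfur protein, was at 364, 343 and 308 FPKM in WT and at 210, 440 and 491 FPKM in Rarres2-/-, a difference of 0.08 (SE 0.339). Cyc1, the cytochrome c1 that docks cytochrome c, was at 434, 345 and 290 FPKM in WT and at 202, 414 and 545 FPKM in Rarres2-/-, a difference of 0.03 (SE 0.386). In these genes replicate 4 was again below every WT library, and the groups overlapped. The other 4 subunits, Uqcrc1, Uqcrb, Uqcrh and Uqcr10, also had their lowest value in replicate 4, from 189 FPKM for Uqcrc1 to 423 FPKM for Uqcr10.

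Cytochrome c itself (Cycs, chromosome 6, 50562563 to 50566569) was at 129, 154 and 140 FPKM in WT and at 69.4, 234 and 230 FPKM in Rarres2-/-. Replicates 5 and 6 were nearly equal and above all WT libraries, and replicate 4 was at 0.492 times the WT mean. The means were 141 ± 12.7 and 178 ± 94.0 FPKM (SD, n = 3 each), and the log2 difference was 0.14 (SE 0.468, 95% interval -0.97 to 1.26). Cycs has pseudogene copies in the annotation, and the sources used here do not say how reads were divided between copies.

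In complex IV the 10 genes lowest in replicate 4 were the abundant ones, and the 3 others were the rare forms Cox4i2, Cox6a2 and Cox6b2. Cox8a, a small subunit, had the highest mean of the complex (chromosome 19, 7215158 to 7217616). It was at 2568, 1836 and 1792 FPKM in WT and at 1310, 2032 and 2814 FPKM in Rarres2-/-, a difference of -0.06 (SE 0.343). Cox6c, a small subunit with a single form, was at 1975, 1420 and 1429 FPKM in WT and at 723, 1599 and 1908 FPKM in Rarres2-/-, a difference of -0.29 (SE 0.401). Both had replicate 4 as the lowest library, and in Cox6c the highest was WT replicate 1. Cox7a2, the form of its subunit found in most tissues, was at 548, 401 and 398 FPKM in WT and at 207, 531 and 630 FPKM in Rarres2-/-, a difference of -0.11 (SE 0.432). Cox7b was at 355, 290 and 268 FPKM in WT and at 153, 419 and 446 FPKM in Rarres2-/-, a difference of 0.02 (SE 0.423). Cox7a2l, a relative of Cox7a2 listed as a supercomplex factor, was at 176, 167 and 176 FPKM in WT and at 121, 171 and 171 FPKM in Rarres2-/-. Its difference was -0.18 (SE 0.196), and replicate 6 was 1.42 times replicate 4, the smallest such ratio among genes averaging at least 50 FPKM. Cox5a and Cox5b, which build the matrix side of the complex, and Cox7c were lowest in replicate 4 as well, at 307, 634 and 674 FPKM.

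Several subunits of complex IV exist in forms that replace each other by tissue or state, and Cox4i2, Cox6a2 and Cox6b2 stayed below 1% of their pair in every library. Cox4i1, the common form of the subunit through which ATP regulates the enzyme, was at 2474, 1556 and 1790 FPKM in WT and at 1073, 1963 and 2528 FPKM in Rarres2-/-, a difference of -0.12 (SE 0.377). Cox4i2, its form in lung and in low oxygen, was at 12.2, 1.86 and 4.28 FPKM in WT and at 4.80, 2.79 and 3.17 FPKM in Rarres2-/-, a difference of -0.37 (SE 0.525). WT replicate 1 was the highest library for Cox4i2, and its share of the pair was 0.119% to 0.491% in WT and 0.125% to 0.446% in Rarres2-/-. Cox6a1 was at 2333, 1552 and 1576 FPKM in WT and at 1107, 1678 and 2375 FPKM in Rarres2-/-, a difference of -0.12 (SE 0.347). Cox6a2, its form in heart and skeletal muscle and also found in heat-producing fat (chromosome 7, 128205435 to 128206366), was at 9.87, 3.24 and 2.07 FPKM in WT and at 6.45, 11.8 and 6.32 FPKM in Rarres2-/-. Only WT replicate 1 reached the Rarres2-/- values. The difference of 0.77 (SE 0.479, 95% interval -0.37 to 1.90) was the largest of the 47 and did not pass, and the share of the pair was 0.131% to 0.421% in WT and 0.265% to 0.696% in Rarres2-/-.

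WT replicate 1 was also the library with the most RNA of skeletal muscle markers. Of the 14 listed, the 13 tested summed to 2099, 315 and 415 FPKM in WT and to 639, 770 and 482 FPKM in Rarres2-/-, while Myh2, the marker not tested, was at 0 in some library, and the part of this in the Cox6a2 values was not tested. Cox6b1, the subunit that links the monomers of the dimer, was at 1581, 1348 and 1334 FPKM in WT and at 736, 1644 and 2248 FPKM in Rarres2-/-, a difference of -0.02 (SE 0.420). Cox6b2, its form in testis (chromosome 7, 4751792 to 4753094), was at 4.09, 3.20 and 2.84 FPKM in WT and at 3.93, 4.41 and 4.88 FPKM in Rarres2-/-. Only WT replicate 1 and Rarres2-/- replicate 4 crossed, and the difference was 0.31 (SE 0.161, 95% interval -0.07 to 0.69). Its share of the pair was 0.213% to 0.258% in WT and 0.531%, 0.267% and 0.216% in Rarres2-/-, so replicate 4, where Cox6b1 was lowest, had the highest share. The forms left out by name stand beside these. Cox7a1 was at 32.7%, 29.5% and 27.2% of Cox7a1 and Cox7a2 together in WT and at 22.8%, 27.2% and 35.4% in Rarres2-/-. Cox8b was at 28.5%, 37.9% and 36.4% of Cox8a and Cox8b in WT and at 25.7%, 33.2% and 33.5% in Rarres2-/-. Both shares were lowest in Rarres2-/- replicate 4, and no share of a form separated the genotypes.

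**Figure D3:**
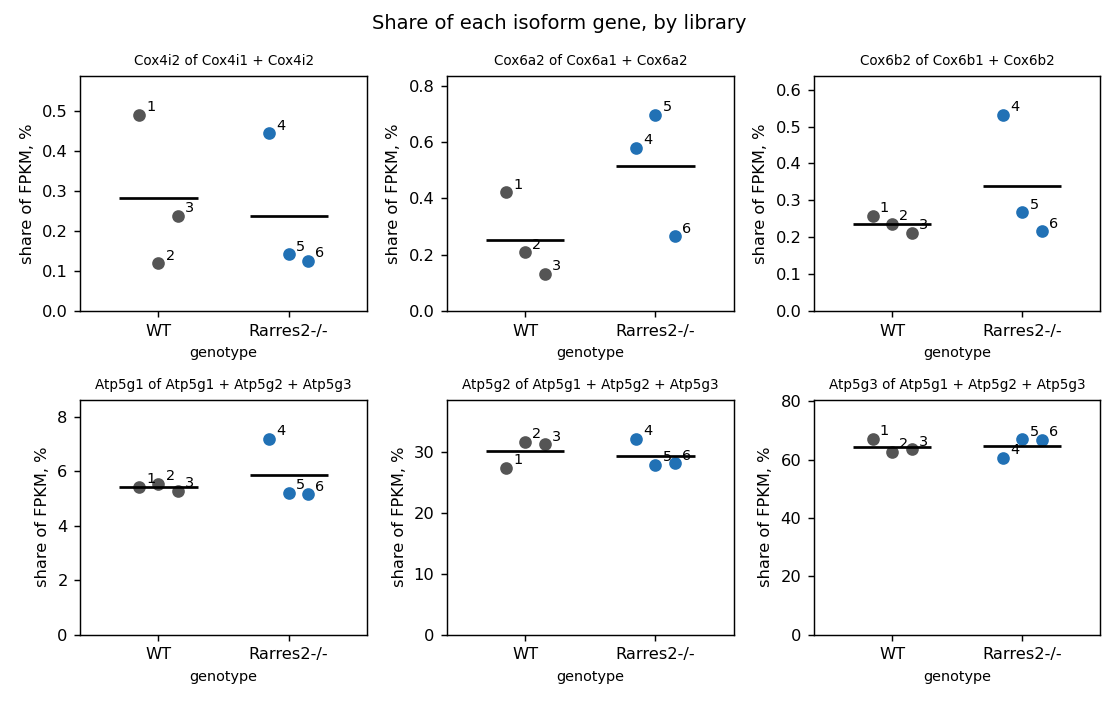
Share, in percent of summed FPKM, of the rarer forms Cox4i2, Cox6a2 and Cox6b2 within their pairs and of the c-ring genes Atp5g1, Atp5g2 and Atp5g3 within their triplet, with a point for each library. The genotypes overlap in every panel, and for Atp5g1 Rarres2-/- replicate 4 lies at 7.19%, above the other libraries (5.15% to 5.53%).

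In complex V the catalytic head that makes ATP had its largest subunits higher in Rarres2-/- replicates 5 and 6 than in any WT library. Atp5a1, the alpha subunit, was at 523, 638 and 565 FPKM in WT and at 462, 818 and 884 FPKM in Rarres2-/-, a difference of 0.27 (SE 0.292). Atp5b, the catalytic beta subunit (chromosome 10, 128083307 to 128090388), was at 1393, 1285 and 1189 FPKM in WT and at 918, 1681 and 1968 FPKM in Rarres2-/-, a difference of 0.17 (SE 0.325). Both still overlapped between genotypes through replicate 4. Atp5e, the small epsilon subunit of the head, was at 1405, 934 and 922 FPKM in WT and at 549, 1080 and 1362 FPKM in Rarres2-/-, a difference of -0.19 (SE 0.385), with WT replicate 1 the highest library. The 5 genes of the head had a median difference of 0.17, the 3 of the c ring 0.02 and the 7 of the stalks and membrane part -0.06. Of the latter, Atp5k, which helps ATP synthase form dimers (chromosome 5, 108433246 to 108434399), had the highest mean of the complex. It was at 2284, 1298 and 1269 FPKM in WT and at 799, 1707 and 2268 FPKM in Rarres2-/-, a difference of -0.09 (SE 0.449). Atp5j2, a subunit of the membrane part, was at 1252, 988 and 990 FPKM in WT and at 450, 1141 and 1520 FPKM in Rarres2-/-, a difference of -0.22 (SE 0.454). In both, replicate 4 lay far below the other 5 libraries. WT replicate 1 lay close to replicate 6 for Atp5k, and between replicates 5 and 6 for Atp5j2.

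The c ring, whose turning drives synthesis, is encoded by 3 genes for the same mature protein. Atp5g3 was at 1111, 901 and 928 FPKM in WT and at 542, 1250 and 1441 FPKM in Rarres2-/-, a difference of 0.02 (SE 0.391). Atp5g2 was at 453, 455 and 457 FPKM in WT and at 287, 521 and 607 FPKM in Rarres2-/-, a difference of -0.02 (SE 0.302). Atp5g1 was at 89.6, 79.4 and 77.2 FPKM in WT and at 64.2, 97.3 and 111 FPKM in Rarres2-/-, a difference of 0.11 (SE 0.232). Their order by level was the same in every library, and their shares moved less than their levels. Atp5g3 gave 62.8% to 67.2% of the ring's FPKM in WT and 60.6% to 66.9% in Rarres2-/-, Atp5g2 27.4% to 31.7% and 27.9% to 32.2%, and Atp5g1 5.28% to 5.53% and 5.15% to 7.19%. The highest Atp5g1 share was in replicate 4, where all 3 genes were lowest. Atp5s and Atp5sl, named after the synthase but not subunits of it, stayed at 4.34 to 6.90 and 5.14 to 7.86 FPKM, and replicate 4 was lowest in neither.

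Those that were not lowest in replicate 4 were Sdha and 5 of the 7 genes averaging under 50 FPKM: Cox4i2, Cox6a2, Cox6b2, Atp5s and Atp5sl. Among the 40 genes above that level, a split chosen after the levels were seen, replicate 4 was lowest in 39, at 0.362 (Uqcrq) to 0.909 (Sdha) times the WT mean with a median of 0.536. All 40 were also at or above percentile 90 of tested genes by mean FPKM. Of the 1576 tested genes at that level, replicate 4 was lowest in 888, with a median deviation of -0.34, so a lower value in that library was common among abundant genes in general. Replicate 6 was highest in 707 of the 1576 and in 34 of the 40. Replicates 5 and 6 both lay above every WT library in 661 of the 1576 and in 22 of the 40. The SD was larger in Rarres2-/- in 71.7% of the 1576 and in 40 of the 40.

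The differences of the abundant genes tended to rise with coding length. The median coding length of the 47 was 408 bases, against 1356 over all tested genes, and 35 of 47 were at most 600 bases, where 13.1% of tested genes were. Of the 24 genes up to the median length, 19 had a log2 difference below 0 (median -0.09), and of the 23 longer ones 14 had a difference above 0 (median 0.03). Sdha with 1992 bases, Atp5a1 with 1659 and Atp5b with 1587 had differences of 0.32, 0.27 and 0.17, while Uqcrq with 246 bases, Uqcr11 with 168 and Atp5e with 156 had differences of -0.23, -0.22 and -0.19. Some short genes did not follow, such as Cycs with 315 bases (0.14) and Cox7b with 240 (0.02). Across all 47 the difference and log2 coding length had r = 0.43 and rho = 0.55, and across the 40 abundant genes r = 0.75 and rho = 0.69. Over all 10723 tested genes with a coding length, with no such cut on level, r = 0.06 and rho = 0.06. This is across genes that share the same libraries and is a description. For the 40 genes, r between the deviation and log2 coding length was furthest from 0 in WT replicate 1 and Rarres2-/- replicate 4. It was -0.62, 0.36 and -0.26 in WT replicates 1 to 3 and 0.59, 0.23 and -0.06 in Rarres2-/- replicates 4 to 6. Over all tested genes it was 0.01, -0.05 and -0.06 in WT and 0.39, -0.13 and -0.32 in Rarres2-/-, in the same order. In replicate 4 the 556 tested genes of at most 408 bases had a median deviation of -0.42. The trend removed in an alternative fit was that on transcript length, which can differ widely from coding length (4715 and 408 bases for Atp5g1). With it removed from each library, the median of the 47 in replicate 4 was -0.42 in place of -0.79. By complex that median was -0.51 in complex II, -0.44 in complex III, -0.34 in complex IV and -0.42 in complex V. The median of the 47 in replicate 6 was 0.30. The median difference between genotypes was then 0.06. Whether length, RNA quality or library preparation had a part in the low values was not tested.

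**Figure D4:**
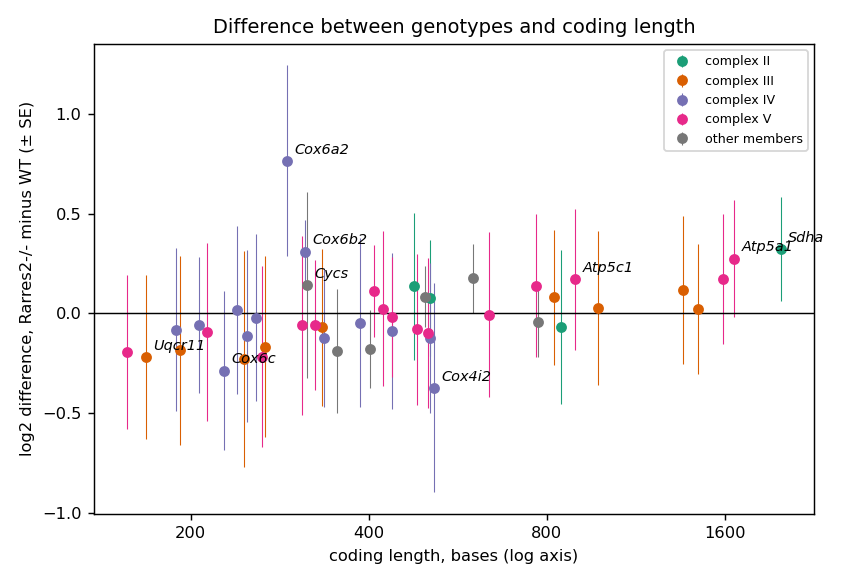
Log2 difference (Rarres2-/- minus WT, points, with SE as lines) of each gene against its coding length in bases on a log axis. The long subunits Sdha (0.32) and Atp5a1 (0.27) lie above 0 and the short Uqcrq (-0.23) and Atp5e (-0.19) below, and the SE reaches across 0 for all but Sdha, Cox6a2, Cox6b2 and Atp5s.

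Replicate 4 stood opposite to replicates 5 and 6. Leaving it out raised the median difference in every complex and turned its sign in complexes III to V. Without replicate 4 the median log2 difference was 0.47 in complex II, 0.37 in complex III, 0.37 in complex IV, 0.35 in complex V and 0.37 over all 47. The difference was then above 0 in 44 of 47 genes, where 53.2% of tested genes were. At a mean of at least 50 FPKM, it was above 0 in 39 of the 40 members and in 1229 of 1576 tested genes. Sdha was then at 0.55, Cycs at 0.72, Uqcrq at 0.37 and Atp5k at 0.34. Still 0 of 47 passed, the smallest adjusted p being 0.355 by limma, and 18 of 47 had an unadjusted p under 0.05, against 11.2% of tested genes. Without WT replicate 1 the median over the 47 was 0.07 (0.07 in complex II, 0.04 in complex III, 0.07 in complex IV and 0.11 in complex V), so that library also turned the sign in complexes III to V. Without replicate 5 it was -0.15, and without replicate 6 -0.32, with complex II at -0.02 and -0.13. Without WT replicate 1 and Rarres2-/- replicate 4 together, the libraries that stand apart, the median was 0.45 with 46 of 47 above 0. Of the 11086 tested genes 5987 were above 0, and of the 1576 averaging at least 50 FPKM 1205 were. Again 0 of 47 passed (0.613% of tested genes did), the smallest adjusted p being 0.0623 by limma. With array weights, by which limma gives each library a weight from its residuals (0.192 for WT replicate 1, 0.179 for Rarres2-/- replicate 4 and 6.19 for Rarres2-/- replicate 5), 13.7% of tested genes passed. Of the 47, Cox6a2 (adjusted p 0.0168) and Cox6b2 (adjusted p 0.0284) did, at means of 6.62 and 3.89 FPKM over the libraries.

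**Figure D5:**
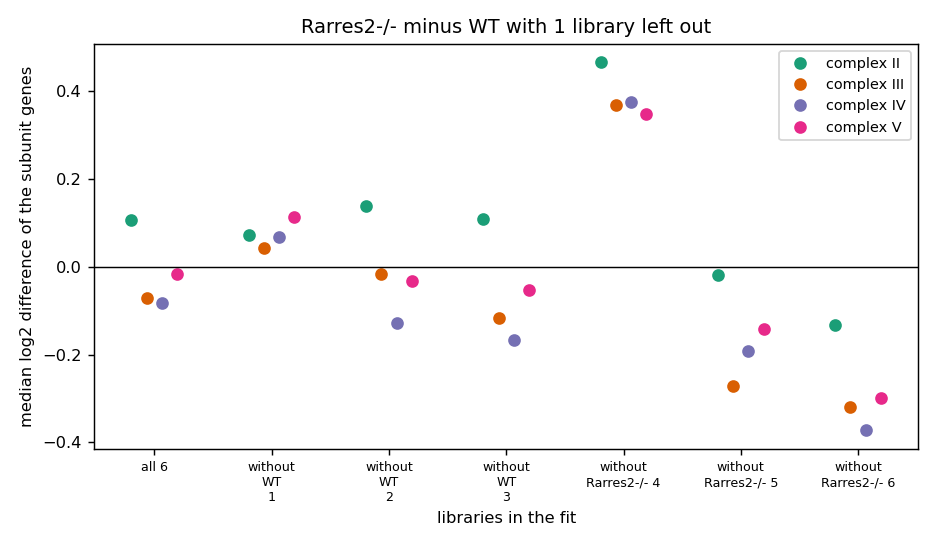
Median log2 difference (Rarres2-/- minus WT) over the genes of each complex, with all libraries and with each library left out in turn. The medians with all libraries lie from -0.08 to 0.11, and all 4 lie between 0.35 and 0.47 when Rarres2-/- replicate 4 is left out.

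Other genes of the pathway were compared over lists. Complex I, which feeds electrons to the chain from NADH, was listed by a symbol pattern of 37 genes. The pattern also takes Ndufa4, now known as a subunit of complex IV that the choice by symbol above did not reach, and its relative Ndufa4l2, and both were set aside after the values were seen. Of the 35 that remained, 0 passed in either direction, with a median difference of -0.12 (also -0.12 over the 37). Replicate 4 was lowest in 34 of the 35, with a median deviation of -0.85, and they summed to 15329, 11327 and 11297 FPKM in WT and to 6733, 13668 and 16541 FPKM in Rarres2-/-, lowest in replicate 4 and highest in replicate 6 as in complexes II to V. Ndufa4 was at 1632, 1309 and 1328 FPKM in WT and at 633, 1632 and 1889 FPKM in Rarres2-/-, a difference of -0.18 (SE 0.432), with the extremes of the abundant complex IV genes. Of the 33 listed assembly factors of complexes III to V, 22 had values and 0 passed, with a median difference of 0.11. Their deviation in replicate 4 was -0.34, less far below the mean than that of the subunits, and Cox15, which makes heme for complex IV, had the smallest p in the list, with a log2 difference of 0.35 (SE 0.165). Atpaf1, a chaperone of the ATP synthase head, came next at 0.31 (SE 0.151). The 14 regulators of mitochondrial biogenesis, among them Ppargc1a, Esrra, Nrf1, Gabpa and Tfam, had 0 passing and a median difference of 0.01, and a median deviation of 0.11 in replicate 4, where the subunits were lowest. Replicate 4 was the lowest library in 4 of the 14, where it was lowest in 28.5% of tested genes. Esrra was 1 of these, at 26.1 FPKM there against 32.4 to 51.9 FPKM in the others. Ppargc1b, a PGC-1 coactivator, had the smallest p of the 14, with a difference of -0.52 (SE 0.313), and was highest in WT replicate 1 at 12.2 FPKM against 3.73 to 5.79 FPKM in the others.

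Marker lists of cell types differed in which libraries they set apart. The 10 adipocyte markers summed to 50891, 43553 and 52230 FPKM in WT and to 31546, 63872 and 65920 FPKM in Rarres2-/-, a sum carried mainly by Fabp4, a fatty acid carrier (22503 FPKM in replicate 4 and 32318 to 50671 FPKM in the others). Member by member, replicate 4 was lowest in 5 of 10, with a median deviation of -0.28. Plin1, which coats the lipid droplet, was at 844 FPKM there against 526 to 602 FPKM in WT, and Lipe and Cidec also lay above every WT library, so these adipocyte markers went the other way from the complexes.

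Taken as a set, the 8 brown and beige adipocyte markers did not share the low value of the complexes in replicate 4 either, where their median deviation was 0.33. Replicate 4 was lowest in 1 of the 8, Elovl3 (0.345 FPKM, against 0.372 to 3.14 FPKM in the others). The 8 summed to 331, 236 and 240 FPKM in WT and to 314, 249 and 314 FPKM in Rarres2-/-, mostly from Cidea (140 to 226 FPKM), the only member with a difference below 0. The difference was above 0 in the other 7, the median was 0.38, and 4 of 8 did not overlap between genotypes (10.3% of tested genes): Ucp1, Dio2, Gyk and Otop1, each higher in every Rarres2-/- library. Ucp1, the uncoupling protein, was at 43.1, 46.6 and 56.1 FPKM in WT and at 61.5, 62.8 and 74.6 FPKM in Rarres2-/-. By limma 0 of the 8 passed, and 3 had an unadjusted p under 0.05.

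The 7 endothelial markers summed to 252, 48.7 and 50.6 FPKM in WT and to 167, 46.8 and 55.2 FPKM in Rarres2-/-, high in WT replicate 1 and Rarres2-/- replicate 4. The 11 macrophage markers summed to 484, 2047 and 2049 FPKM in WT and to 1096, 1209 and 942 FPKM in Rarres2-/-, and the 7 markers of progenitors and fibroblasts to 912, 4375 and 3157 FPKM and to 2004, 1736 and 1732 FPKM. Both were lowest in WT replicate 1, and replicate 4 was near the mean in both (median deviations -0.08 and -0.07). The lymphocyte markers, 7 of 10 tested, summed to 10.8, 5.08 and 40.9 FPKM in WT and to 11.2, 10.4 and 19.7 FPKM in Rarres2-/-, highest in WT replicate 3. No adipocyte, brown and beige, endothelial, macrophage or progenitor marker was at 0 in any library. Their part in the values of the complexes was not tested, and in tissue RNA fewer cells of a type and less RNA per cell cannot be told apart.

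Some values are uncertain for reasons of the gene itself. Of the 47, 7 have pseudogene copies in the annotation (14 copies in all), and reads could be split among them. A further limit is overlap: 16 lie over another annotated gene, among them Uqcrq with Gdf9, Cox6a2 with Itgad and Cox4i2 with Bcl2l1, and without knowledge of strand the reads of such pairs cannot be told apart.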

How the data were processed

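Tables of FPKM, 1 per library, were deposited by the authors, per the file headers. The header of WT replicate 3 gives the sample's name but no unit, and that table was read as FPKM since its rows and scale were those of the others. Bowtie and mm10 (GRCm38) are named in the submitters' processing notes. The sources used here do not give the program behind FPKM, the annotation, strand, versions or the treatment of reads shared by gene copies. FPKM removes depth, and a few abundant genes can shift all others.

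The 47 genes were found by symbol. Members, gene lists and marker lists were chosen with earlier results of these data known. The 11086 genes averaging at least 1 FPKM were fitted on log2(FPKM + 1) with limma 3.58.1 in R 4.3.3 (eBayes with trend, two-sided, genotype as the only term). Benjamini-Hochberg adjustment ran over all of them, with a threshold of 0.05. The 737 rows with no symbol (0.793% to 4.91% of summed FPKM) stayed out. Values in every library are printed for complex II, the most and least abundant gene of each complex, the 2 of smallest p either way, Cyc1, Cycs and exchangeable forms. Listed genes with an older symbol in the files, such as Peo1 for Twnk, were matched by it. Coding and transcript lengths are from GENCODE M21, and coordinates and promoters from RefSeq on GRCm38. The length trend removed in an alternative fit was that on transcript length. Of the 47, 3 were matched to RefSeq by a later symbol.

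Alternatives were 3 other scalings, removal of the length trend, 2 other filters, a pseudocount of 0.1, array weights, no trend, robust empirical Bayes, an adjusted p under 0.1, each library left out, and WT replicate 1 and Rarres2-/- replicate 4 left out together. The fit was first tested on simulated data, with the means and spreads of these genes and 200 genes changed by known amounts. It recovered 35% of changes of log2 size 1 and 83% of those of log2 size 2, and called 7 unchanged genes. Smaller changes could thus be missed.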

Additional observations from a re-analysis of the deposited data

How the results depend on the processing

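The limma count of 0 among all tested genes became 1 with scaling to the upper quartile or to the sum without the 20 most abundant genes, with removal of the length trend, a minimum of 5 FPKM in 3 libraries or an adjusted p under 0.1. It became 1524 with array weights and 68 without WT replicate 1 and Rarres2-/- replicate 4. With each library left out it ran from 0 to 1, the latter without Rarres2-/- replicate 5 or 6. Among the 47 genes it was 2 with array weights and 0 under the other settings. The median over the 47 was 0.45 without that pair of libraries, and that over complex V 0.47. With each library left out, medians ran from -0.32 to 0.37 over the 47, from -0.13 to 0.47 in complex II, from -0.32 to 0.37 in complex III, from -0.37 to 0.37 in complex IV and from -0.30 to 0.35 in complex V. Of 29 genes with printed differences, 13 changed sign with array weights: Atp5e 0.21, Atp5g2 0.19, Atp5j2 0.20, Atp5k 0.39, Cox4i1 0.24, Cox6a1 0.12, Cox6b1 0.30, Cox6c 0.15, Cox7a2 0.38, Cox8a 0.18, Sdhb 0.28, Uqcr11 0.23 and Uqcrq 0.38. Without the pair of libraries, 14 did: Atp5e 0.39, Atp5g2 0.30, Atp5j2 0.41, Atp5k 0.62, Cox4i1 0.42, Cox4i2 0.033, Cox6a1 0.35, Cox6b1 0.52, Cox6c 0.29, Cox7a2 0.53, Cox8a 0.40, Sdhb 0.45, Uqcr11 0.42 and Uqcrq 0.62. With the length trend removed, 7 did: Atp5g2 0.099, Atp5k 0.10, Cox6a1 0.025, Cox6b1 0.12, Cox7a2 0.020, Cox8a 0.095 and Sdhb 0.0016. With quantile normalization, 3 did: Cox6b1 0.0099, Cox8a 0.0090 and Cyc1 -0.0044. Among the 29, the 2 other scalings and the pseudocount of 0.1 changed no sign. The 2 other filters, no trend and robust empirical Bayes leave a fitted difference as it is, so they could not change a sign. The filter of 5 FPKM in 3 libraries kept 27 of the 29. Left out in turn, libraries gave differences on both sides of 0 for Atp5b -0.050 to 0.50, Atp5e -0.47 to 0.19, Atp5g1 -0.049 to 0.34, Atp5g2 -0.23 to 0.30, Atp5g3 -0.25 to 0.46, Atp5j2 -0.58 to 0.30, Atp5k -0.41 to 0.34, Cox4i1 -0.39 to 0.23, Cox4i2 -0.89 to 0.22, Cox6a1 -0.39 to 0.16, Cox6b1 -0.37 to 0.44, Cox6c -0.56 to 0.14, Cox7a2 -0.42 to 0.38, Cox7b -0.25 to 0.51, Cox8a -0.32 to 0.23, Cyc1 -0.28 to 0.44, Cycs -0.15 to 0.72, Sdhb -0.37 to 0.38, Sdhc -0.16 to 0.39, Sdhd -0.11 to 0.56, Uqcr11 -0.50 to 0.18, Uqcrc2 -0.14 to 0.55, Uqcrfs1 -0.15 to 0.46 and Uqcrq -0.64 to 0.37. The causes were not tested. No paired analysis was possible because the sample numbers 1 to 3 and 4 to 6 are not shared between genotypes. FPKM gives no counts, so no counting interval can be set on low genes such as Cox4i2, Cox6a2 and Cox6b2, and 3 libraries a genotype limit the precision of all.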
